A study of Rattus norvegicus with 4 samples.

Results

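The nuclei described here carried transcripts of Th and Ddc, the enzymes that make dopamine from tyrosine, together with C1ql1 and Slc17a6, but next to none of Slc6a3, the dopamine transporter. A barcode was a member when it held at least 2000 unique molecular identifiers (UMIs, each a counted RNA molecule), at least 1 UMI each of Th, Ddc, C1ql1 and Slc17a6, at most 1 of Slc6a3, and none of Gad1 or Slc26a7. They were thus selected on UMI counts of 7 genes and on total UMIs, and nothing else. In all, 87 of 21606 barcodes met this rule, of which female 1 gave 26, female 2 gave 15, male 1 gave 16 and male 2 gave 30. The members were set beside 339 dopamine nuclei, which held at least 2 UMIs each of Th and Slc6a3, and beside 587 C1ql1/Slc17a6 nuclei without Th, which held at least 1 UMI each of C1ql1 and Slc17a6 and 0 of Th. No set was limited to neurons. Below, the members are called Th/C1ql1 glutamate nuclei.

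Th catalyses the rate-limiting step of dopamine synthesis and Ddc the step after it, Slc18a2 loads dopamine into vesicles, and Slc6a3 takes it back up from outside the cell. Slc17a6 encodes a vesicular glutamate transporter, and C1ql1 a secreted protein of the complement C1q family that binds the receptor Adgrb3 at synapses. The ventral tegmental area (VTA), the midbrain region sampled here, is known to hold neurons that release dopamine, glutamate or GABA, some of which use more than one of these transmitters. In rodents, some medial midbrain neurons hold Th mRNA with little dopamine transporter, and not all of them make detectable Th protein.

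The study profiled single nuclei of the VTA of naive Sprague-Dawley rats, females and males of 90 to 120 days, with no treatment. There were 4 libraries, 2 from females and 2 from males, and each pooled tissue of 3 rats, so animals within a library could not be told apart and the library was the replicate. Nuclei were stained with 7-AAD, sorted, and sequenced from the 3' ends of transcripts on the 10x Genomics platform. Per library, 3628 to 6955 barcodes and 19714338 to 25824289 UMIs were deposited, and 3106 to 4715 barcodes held at least 2000 UMIs, 15296 in all. The median depth was 7757 UMIs in Th/C1ql1 glutamate nuclei (8518.5 and 8711 in the female libraries, 8148.5 and 5833.5 in the male ones), 9130 in dopamine nuclei and 7301 in the C1ql1/Slc17a6 nuclei without Th. Every barcode sequence was compared between libraries: 36 occurred in 2 libraries, and none of those was a member. The highest doublet scores, marked up to a preset share of each library, took in 7 of the 87 members (8.05%), against 4.72% of dopamine nuclei and 8.35% of the C1ql1/Slc17a6 nuclei without Th.

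Levels are given in CPM, the UMIs of a gene per 1000000 UMIs summed over the nuclei of 1 set in 1 library, and 4 values in a row are always in the order female 1, female 2, male 1, male 2. The values of the 7 selection genes describe the choice of nuclei and were not tested. Th stood at 349.7, 279, 288 and 378 CPM in the Th/C1ql1 glutamate nuclei and at 747, 566, 764 and 808 CPM in dopamine nuclei, with no overlap between the 2 sets of libraries. Ddc stood at 451, 566, 349 and 662 CPM in members and 1625, 1463, 1576 and 1344 CPM in dopamine nuclei. The median member held 2 Th UMIs, and 29 of 87 members held only 1. In oligodendrocyte nuclei, a cell type that should lack these transcripts, 2.66% held a Th UMI, 1.95% a Ddc UMI, 2.50% a C1ql1 UMI and 2.66% a Slc17a6 UMI, at a median depth of 3158 UMIs. That set was defined by Mobp, Mog and Rbfox3 counts and excluded neither members nor dopamine nuclei, and 5 members met it. Single nuclei in it held up to 14 Th, 38 Ddc and 33 Slc6a3 UMIs, so its shares are not a clean background. At least 2 UMIs of each of Th, Ddc, C1ql1 and Slc17a6 were found in 30 of 87 members (34.5%).

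C1ql1 stood at 505, 315, 523 and 514 CPM in members and 399, 378, 365 and 449.7 CPM in the C1ql1/Slc17a6 nuclei without Th. For Slc17a6 the values were 299, 315, 349 and 338 CPM in members and 414, 325, 409 and 308 CPM in the same comparison nuclei, and for both genes the library ranges overlapped. Slc6a3 stood at 7.77, 14.3, 0 and 0 CPM in members against 913, 789.7, 1036 and 836 CPM in dopamine nuclei. It was at 0 UMIs in 83 members and at 1 UMI in 4, all 4 of them from the female libraries. Just outside the rule, 3 nuclei that met every other condition held 2 Slc6a3 UMIs, with a median of 6 Th UMIs, and 2 held 3. A further 5 held 4 or more Slc6a3 UMIs, with medians of 6 Th and 16 Ddc UMIs. A single Gad1 UMI kept out 1 nucleus, and a single Slc26a7 UMI kept out 5. Nuclei that lacked only Th numbered 86, those that lacked only Ddc 90, those that lacked only C1ql1 79 and those that lacked only Slc17a6 28. No barcode with at least 1500 but fewer than 2000 UMIs met the other conditions, and no member held fewer than 2878 UMIs.

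**Figure D1:**
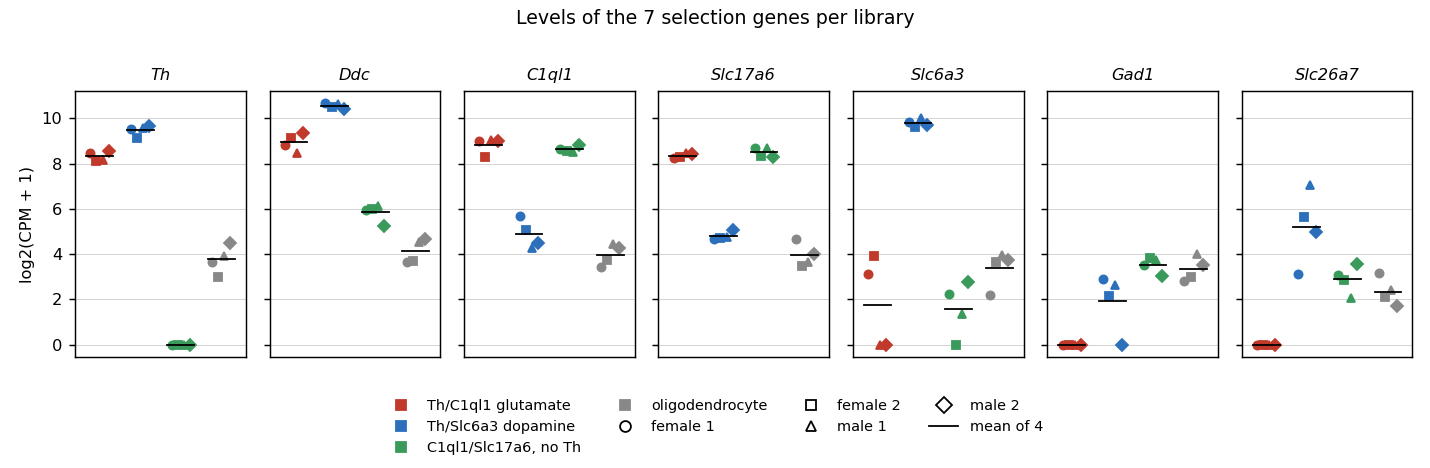
Level of each of the 7 selection genes, as log2(CPM + 1), in the 4 libraries (marker shapes), for members, dopamine nuclei, C1ql1/Slc17a6 nuclei without Th and oligodendrocyte nuclei (colours); the line is the mean of 4 libraries. Th and Ddc sat lower in members than in dopamine nuclei in every library, and within members Slc6a3 was above 0 in the 2 female libraries only.

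When neurons were clustered with the 7 selection genes left out, the Th/C1ql1 glutamate nuclei gathered in 1 cluster but did not fill it. Of 5767 neuronal nuclei in 27 clusters, the cluster numbered 3 held 407 (7.06%), and it held 54 of the 87 members (62.1%, Wilson 95% interval 51.6 to 71.5, counting error only). Its members came from every library, with 15, 8, 10 and 21 nuclei. The same cluster held 102 of the C1ql1/Slc17a6 nuclei without Th (18.4% of those among neurons) and only 4 dopamine nuclei. Across all its nuclei, 46.4% held a Th UMI, 35.6% a Ddc UMI, 77.9% a Slc17a6 UMI and 5.41% a Slc6a3 UMI. Lmx1a, a floor plate transcription factor, was found in 80.1% of them, and Tac1, the substance P precursor, in 58.5%. The genes with the highest ratio to other neurons there were Pdzrn3, Adgrv1, Sema3d and Smoc1, a description of the clustering and no test. Ces1d, Foxa2 and Ebf2 were also among its leading genes. Over all nuclei of the cluster, of which 13.3% were members, Adgrv1 stood at 808 CPM, Ebf2 at 538 CPM and Foxa2 at 35.5 CPM. High levels of these genes were thus not particular to members.

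The other members were scattered over 9 clusters, and 1 fell outside the neurons. Cluster 17, led by Gulp1, Postn and Sall1, held 8 members, and cluster 0, led by Calca and Chst9, held 5. Cluster 8, whose leading genes included the oligodendrocyte genes Mog and Fa2h, held 6. The cluster that held 285 of the dopamine nuclei held 4 members, 1 from female 1 and 3 from female 2. Those 4 nuclei carried 8 of the 17 Slc18a2 UMIs, 10 of the 14 Drd2 UMIs and 29 of the 83 Cck UMIs found in clustered members. The 54 members of cluster 3 carried 5 Slc18a2 UMIs, 3 Drd2 UMIs, 4 Cck UMIs and 194 Tac1 UMIs, the last spread over 29 nuclei. Lmx1a was detected in 48 of the 54.

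**Figure D2:**
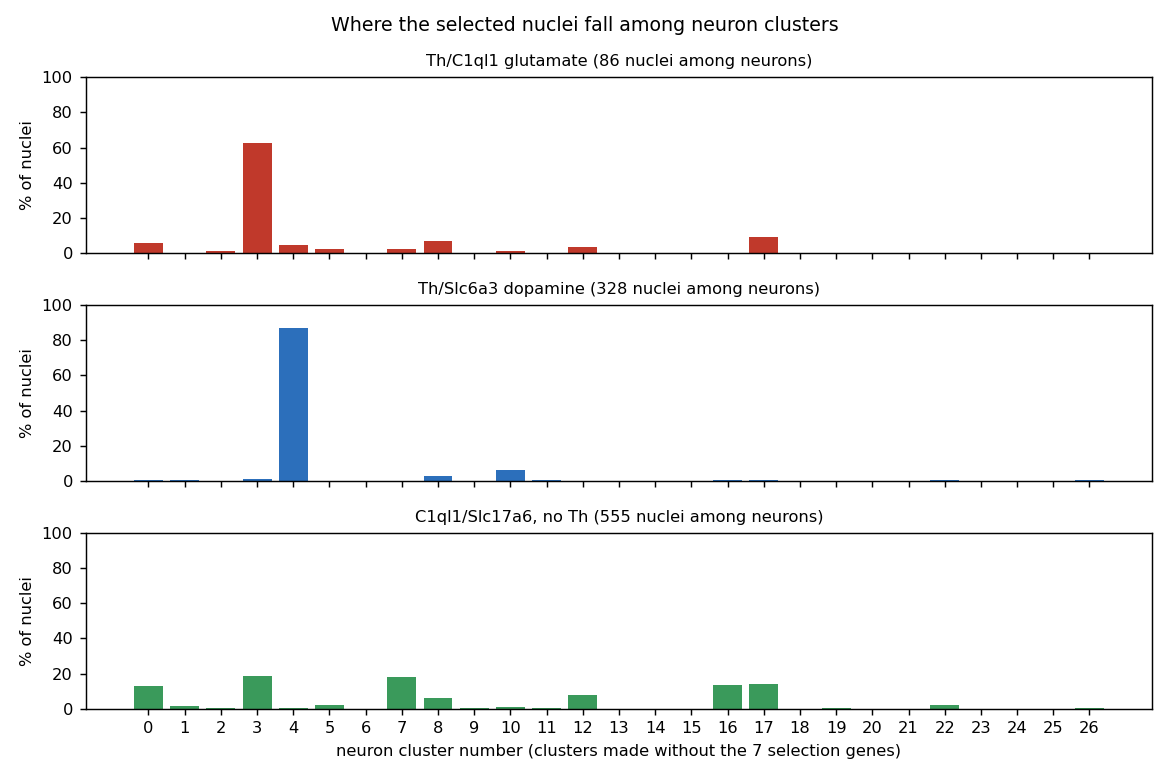
Share of the members, of the dopamine nuclei and of the C1ql1/Slc17a6 nuclei without Th that fell in each neuron cluster, in percent of those among neurons (86, 328 and 555 nuclei). Members peak at cluster 3 and dopamine nuclei at cluster 4, while the C1ql1/Slc17a6 nuclei without Th are spread over several clusters.

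UMIs were summed per library for the members and for both comparison sets, and all 12 sums were fitted together by edgeR's quasi-likelihood test with the library as a block and the selection genes left out. A gene was called at a Benjamini-Hochberg adjusted p under 0.05 over all 10769 genes tested, and each fold change is given on the log2 scale with its standard error. Against dopamine nuclei, 1561 genes were called (14.5%), 784 higher (7.28%) and 777 lower (7.22%) in members, with a median log2 fold change of -0.01 over all genes. Against C1ql1/Slc17a6 nuclei without Th, 351 were called (3.26%), 161 higher (1.5%) and 190 lower (1.76%), with a median of -0.01. Both comparisons use the same member sums and are not independent, so each gene's values are given side by side. The list counts below are to be read beside these shares over all genes, and no list was tested as a set.

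Most of the machinery that handles dopamine was lower in the Th/C1ql1 glutamate nuclei than in dopamine nuclei. Of 16 tested genes of dopamine synthesis and handling outside the selection, 9 were lower, none was higher, and the list's median log2 fold change was -2.08. Slc18a2, the vesicular monoamine transporter, stood at 27.2, 50.1, 6.71 and 9.01 CPM in members and 449, 324, 432 and 356 CPM in dopamine nuclei. The members' libraries all lay below those of the dopamine nuclei (log2 fold change -4.25 ± 0.27, adjusted p = 7.24e-14). In the C1ql1/Slc17a6 nuclei without Th, Slc18a2 stood at 9.48, 5.13, 15.7 and 16.1 CPM, a range that held the male member libraries and lay below the female ones. That difference did not pass the test (log2 fold change 0.81 ± 0.48, adjusted p = 0.534). Gch1, which makes the cofactor that Th needs, stood at 7.77, 28.6, 6.71 and 9.01 CPM in members, 120.4, 124, 145 and 129 CPM in dopamine nuclei and 0, 2.05, 1.57 and 7.10 CPM in the nuclei without Th. It was lower than in dopamine nuclei (log2 fold change -3.54 ± 0.38, adjusted p = 1.14e-08) and did not pass against the nuclei without Th (log2 fold change 1.89 ± 0.74, adjusted p = 0.223).

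Drd2, the dopamine autoreceptor, stood at 23.3, 71.6, 0 and 4.51 CPM in members and 344, 298, 366 and 274 CPM in dopamine nuclei (log2 fold change -3.93 ± 0.30, adjusted p = 6.47e-12). Female 2 held the highest member value, male 1 held no UMI, and without female 2 the log2 fold change was -4.94. Kcnj6, the potassium channel through which that receptor acts in dopamine neurons, was lower by the same comparison (log2 fold change -2.30 ± 0.23, adjusted p = 2.08e-09), as was Dlk1 (log2 fold change -3.74 ± 0.35, adjusted p = 7.57e-10). The weaker calls of Slc10a4 (log2 fold change -2.05 ± 0.59, adjusted p = 0.0156) and Maoa, a monoamine-degrading enzyme (log2 fold change -1.19 ± 0.33, adjusted p = 0.0109), depended on the libraries used. Without male 2, Slc10a4 had an adjusted p of 0.0877, and without female 1 or female 2, Maoa had 0.186 and 0.077. Of the alternatives other than leaving out a library (another test, filter, scaling, set of samples or choice of nuclei), 2 of 11 (adjusted p up to 0.0638 among members with at least 2 Th UMIs) ended the Slc10a4 call.

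Aldh1a1, an aldehyde dehydrogenase expressed in a part of the dopamine neurons, was the only gene of this list called against the nuclei without Th. It stood at 34.97, 85.9, 33.5 and 22.5 CPM in members, 334, 251, 479.7 and 321 CPM in dopamine nuclei and 8.53, 14.4, 7.87 and 3.23 CPM in the nuclei without Th, so the members' libraries lay between the other sets with no overlap. Its level was lower than in dopamine nuclei (log2 fold change -3.16 ± 0.26, adjusted p = 2.37e-11) and higher than in nuclei without Th (log2 fold change 2.34 ± 0.47, adjusted p = 0.00158). The second call was lost among members with at least 2 Th UMIs (adjusted p = 0.0635). The other 15 tested genes of the list did not pass against the nuclei without Th, where the list's median was 0.17.

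**Figure D3:**
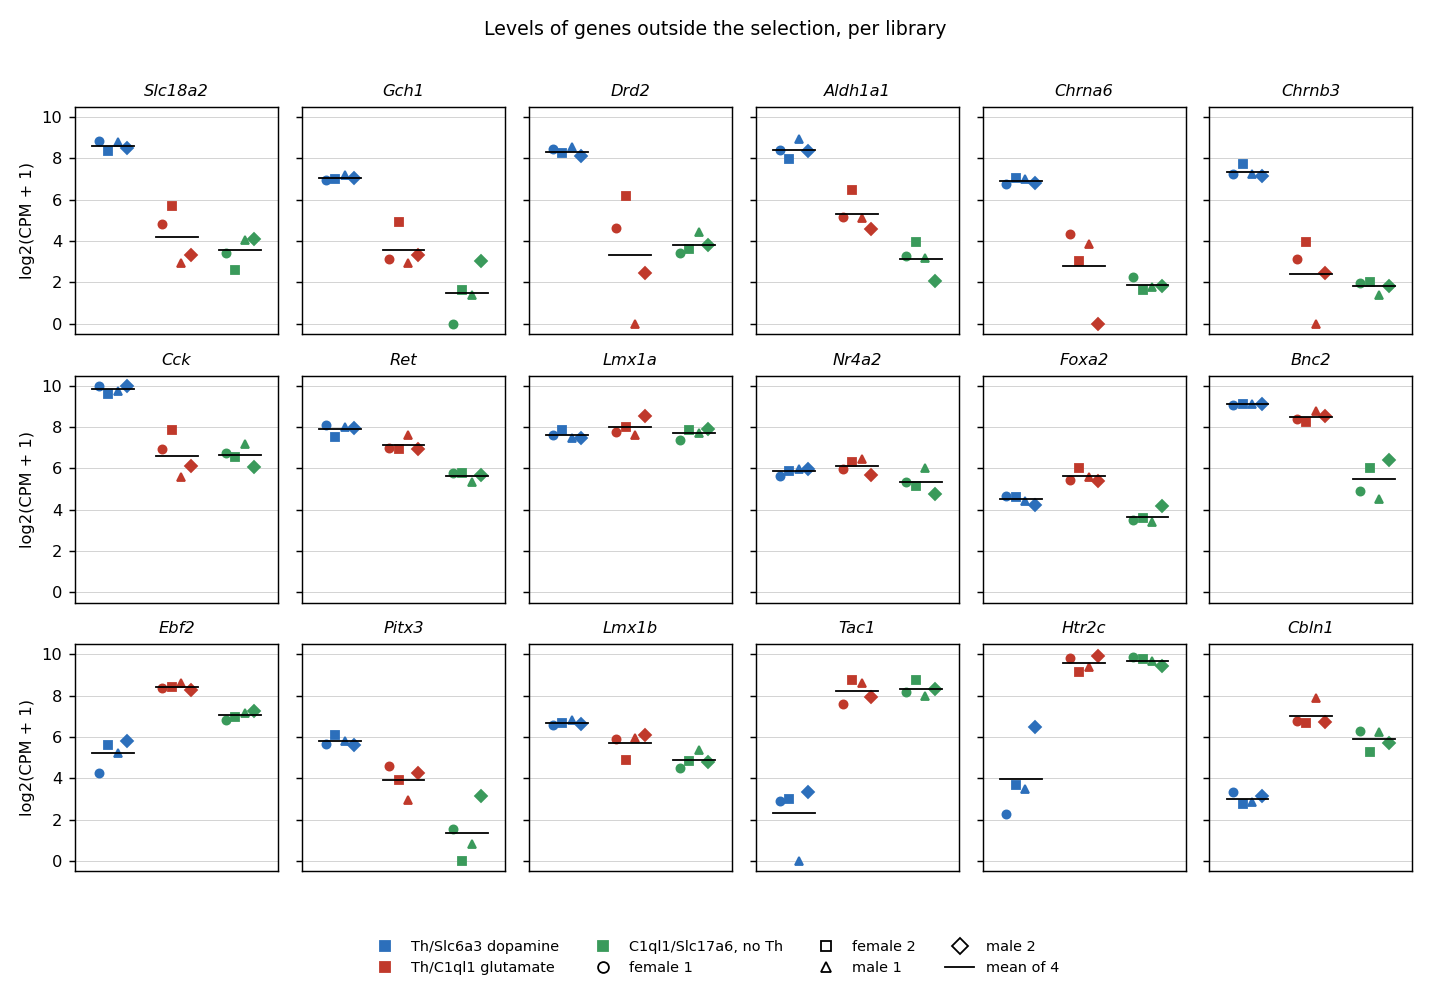
Levels of 18 genes outside the selection, as log2(CPM + 1), in the 4 libraries (marker shapes) of dopamine nuclei, members and C1ql1/Slc17a6 nuclei without Th; the line is the mean of 4 libraries. Slc18a2, Gch1, Drd2 and Chrnb3 sit far below the dopamine nuclei in members, Lmx1a and Nr4a2 lie at overlapping levels in all 3 sets, and Tac1 and Htr2c are high in members and in nuclei without Th.

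Transcription factors of the midbrain dopamine lineage gave a mixed picture against dopamine nuclei and were more often higher than lower against the nuclei without Th. Of 15 tested, 4 were higher and 7 lower than in dopamine nuclei (median -0.45). Against nuclei without Th, 7 were higher and 2 lower (median 1.04). Lmx1a and Nr4a2, which dopamine neurons need during development, did not pass in either comparison. Lmx1a stood at 218, 251, 194 and 374 CPM in members, 192, 229.9, 176 and 174 CPM in dopamine nuclei and 166, 232, 211 and 234 CPM in nuclei without Th, with overlapping ranges (log2 fold change 0.35 ± 0.15, adjusted p = 0.129 against dopamine nuclei, log2 fold change 0.31 ± 0.15, adjusted p = 0.383 against nuclei without Th). Nr4a2 had a log2 fold change 0.16 ± 0.25, adjusted p = 0.76 against dopamine nuclei and a log2 fold change 0.74 ± 0.26, adjusted p = 0.15 against nuclei without Th.

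Foxa2, a floor plate factor that acts upstream of Th, stood at 42.7, 64.5, 46.9 and 40.5 CPM in members, 24.6, 23.2, 20.6 and 17.98 CPM in dopamine nuclei and 10.4, 11.3, 9.44 and 16.8 CPM in nuclei without Th. Every member library was above every library of both other sets. It was higher than in nuclei without Th (log2 fold change 1.90 ± 0.34, adjusted p = 4.47e-04). It was also higher than in dopamine nuclei (log2 fold change 1.02 ± 0.32, adjusted p = 0.0284), a call that was lost when any 1 library was left out (adjusted p 0.0569, 0.127, 0.0785 and 0.069 for each library in turn) and under 2 of 11 other alternatives (adjusted p up to 0.083 with a minimum of 5000 UMIs).

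Bnc2, a zinc finger factor, stood at 330.2, 301, 443 and 369 CPM in members, 531, 550.5, 553 and 559 CPM in dopamine nuclei and 28.4, 64.6, 22.03 and 83.9 CPM in nuclei without Th. The 3 sets did not overlap, and members lay nearer the dopamine nuclei (log2 fold change -0.72 ± 0.18, adjusted p = 0.00452 against dopamine nuclei, log2 fold change 2.83 ± 0.22, adjusted p = 2.12e-10 against nuclei without Th). The first of these calls was lost with DESeq2 (adjusted p = 0.0939). Ebf2 stood at 326, 344, 396 and 306 CPM in members, 18.1, 47.6, 36.1 and 55.1 CPM in dopamine nuclei and 113, 126, 144 and 152 CPM in nuclei without Th. Of these 3 sets it was highest in members in every library, but over all nuclei of cluster 3, most of them not members, it stood at 538 CPM. This member of the early B-cell factor family of neuronal differentiation factors was higher in both comparisons (log2 fold change 3.02 ± 0.18, adjusted p = 3.67e-14, and log2 fold change 1.34 ± 0.15, adjusted p = 2.74e-07). Its relative Ebf3 was likewise higher in both (log2 fold change 0.66 ± 0.15, adjusted p = 0.00148, and log2 fold change 1.04 ± 0.15, adjusted p = 1.44e-05), the first with an adjusted p of 0.0572 without female 2. Ebf1 was higher than in dopamine nuclei (log2 fold change 0.89 ± 0.17, adjusted p = 1.82e-04) and did not pass against nuclei without Th (log2 fold change 0.06 ± 0.16, adjusted p = 0.933).

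Pitx3, a factor that drives Th expression in dopamine neurons, stood at 23.3, 14.3, 6.71 and 18.02 CPM in members, 49.2, 67.4, 54.7 and 47.2 CPM in dopamine nuclei and 1.90, 0, 0.787 and 7.74 CPM in nuclei without Th. It was lower than in dopamine nuclei (log2 fold change -1.78 ± 0.44, adjusted p = 0.00408) and just missed the threshold against nuclei without Th (log2 fold change 2.39 ± 0.70, adjusted p = 0.0515). Lmx1b followed the same course (log2 fold change -0.94 ± 0.23, adjusted p = 0.00298, and log2 fold change 0.92 ± 0.27, adjusted p = 0.0515). Sox6, a factor of ventral tier and nigral dopamine neurons, stood at 58.3, 7.16, 0 and 0 CPM in members, 123, 109, 143 and 62.9 CPM in dopamine nuclei and 90.1, 64.6, 180.2 and 175 CPM in nuclei without Th. It was lower in members by both comparisons (log2 fold change -2.50 ± 0.52, adjusted p = 7.28e-04, and log2 fold change -2.64 ± 0.51, adjusted p = 9.69e-04). Most member UMIs, 15, came from female 1, where 3.85% of 26 members held any, so all 15 sat in the same nucleus. Without female 1 the fitted log2 fold changes were -5.76 and -6.11, and without male 2 the second was -1.92. Zfhx3 was also lower in both (log2 fold change -2.55 ± 0.20, adjusted p = 1.33e-11, and log2 fold change -0.99 ± 0.23, adjusted p = 0.00909), but the second call was lost without female 2, male 1 or male 2 (adjusted p 0.0633, 0.0741 and 0.118).

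Genes that separate dopamine neuron subtypes were mostly low in the Th/C1ql1 glutamate nuclei. Of 19 tested, 12 were lower than in dopamine nuclei and 3 higher (median -1.57), while 2 were higher and 2 lower than in nuclei without Th (median 0.13). Cck, the cholecystokinin precursor, stood at 120.4, 229, 46.9 and 67.6 CPM in members, 1013, 766, 863 and 1012 CPM in dopamine nuclei and 107, 92.3, 146 and 66.5 CPM in nuclei without Th. It was lower than in dopamine nuclei (log2 fold change -3.14 ± 0.23, adjusted p = 1.95e-12) and did not pass against nuclei without Th (log2 fold change 0.11 ± 0.29, adjusted p = 0.932). Anxa1, a marker of a nigral dopamine subtype, had 0 UMIs in members and 45 in dopamine nuclei, at least 3.30-fold lower taking 3 UMIs over all members as the floor. Ntf3, which encodes neurotrophin 3, had 2 UMIs in members and 336 in dopamine nuclei, a ratio of 36.95-fold lower (95% counting interval 10.1 to 306). Calb1, the calcium-binding protein calbindin, was lower than in dopamine nuclei (log2 fold change -1.51 ± 0.29, adjusted p = 2.72e-04), with a log2 fold change of -2.17 without female 1.

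Ret, the receptor for GDNF-family growth factors, was intermediate. It stood at 124, 122, 194 and 122 CPM in members, 271, 180.0, 255 and 246 CPM in dopamine nuclei and 54.03, 54.4, 39.3 and 50.3 CPM in nuclei without Th, lower than the first (log2 fold change -0.91 ± 0.17, adjusted p = 1.67e-04) and higher than the second (log2 fold change 1.44 ± 0.21, adjusted p = 1.57e-05). Male 1 was the one member library inside the range of dopamine nuclei. Adcyap1, which encodes the peptide PACAP, was higher in members than in either set, at 144, 186, 161 and 167 CPM against 46.6, 37.2, 60.9 and 35.96 CPM in dopamine nuclei and 71.1, 74.9, 122 and 83.9 CPM in nuclei without Th (log2 fold change 1.77 ± 0.19, adjusted p = 1.62e-08, and log2 fold change 0.89 ± 0.17, adjusted p = 9.92e-04). Nxph4, a neurexophilin, was higher than in dopamine nuclei (log2 fold change 3.23 ± 0.35, adjusted p = 1.12e-08) and did not pass against nuclei without Th (log2 fold change 0.02 ± 0.23, adjusted p = 0.985).

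Nicotinic acetylcholine receptor subunits typical of dopamine neurons were low. Of 6 tested, 4 were lower than in dopamine nuclei and none higher (median -3.50), and none passed against nuclei without Th (median 1.00). Chrnb3 stood at 7.77, 14.3, 0 and 4.51 CPM in members, 149, 207, 151 and 140.5 CPM in dopamine nuclei and 2.84, 3.08, 1.57 and 2.58 CPM in nuclei without Th (log2 fold change -4.66 ± 0.34, adjusted p = 1.85e-12 against dopamine nuclei). Chrna6, which assembles with that subunit in dopamine neurons, stood at 19.4, 7.16, 13.4 and 0 CPM in members and 106, 130.1, 126 and 110.1 CPM in dopamine nuclei (log2 fold change -3.56 ± 0.35, adjusted p = 2.23e-09). Male 2 held no Chrna6 UMI, and without female 1 the log2 fold change was -4.42. Chrna5 was lower as well (log2 fold change -3.64 ± 0.38, adjusted p = 6.56e-09, and -4.60 without female 2). Chrna3 had 2 UMIs in members, a ratio of 9.68-fold lower (95% counting interval 2.60 to 81.2). Chrna4, a subunit found in most brain nicotinic receptors, did not pass in either comparison.

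**Figure D4:**
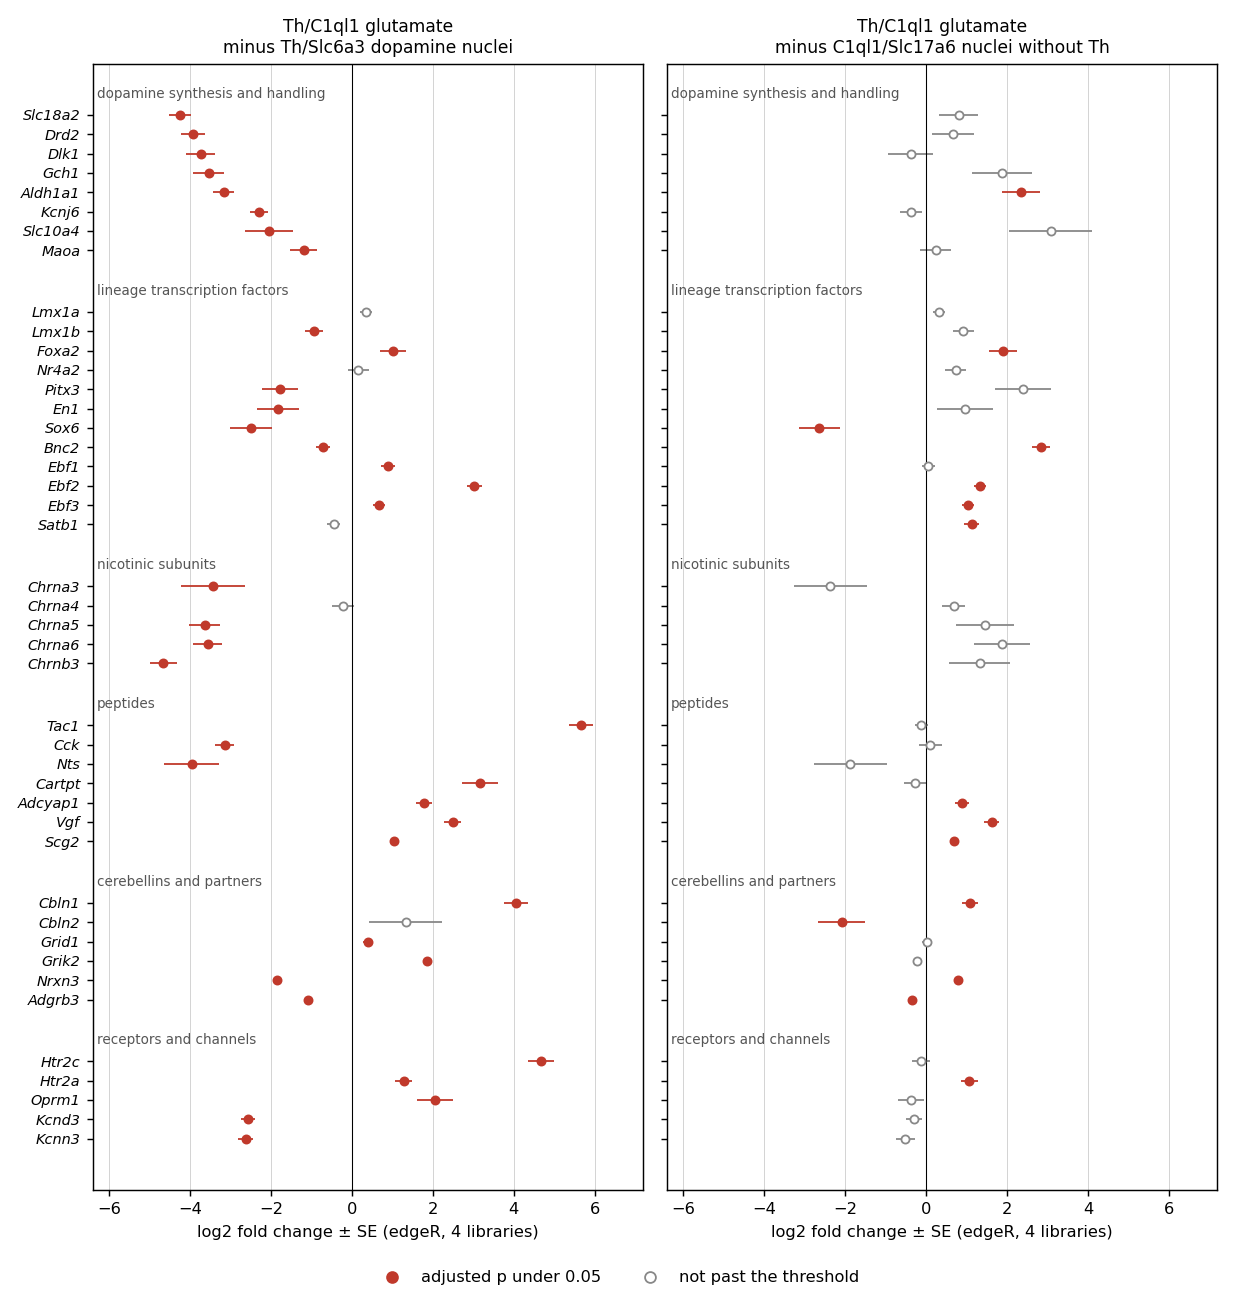
Log2 fold change of 43 listed genes in members against dopamine nuclei (left) and against C1ql1/Slc17a6 nuclei without Th (right), with bars of ± 1 SE; filled points passed an adjusted p of 0.05. Genes of dopamine handling and nicotinic subunits lie left of 0 against dopamine nuclei, and Bnc2, Foxa2 and Ebf2 lie right of 0 against nuclei without Th.

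Among neuropeptides, Tac1 gave the largest difference from dopamine nuclei. Of 14 tested peptide and granule genes, 6 were higher and 3 lower than in dopamine nuclei (median 1.15), and 3 were higher and 2 lower than in nuclei without Th (median 0.00). Tac1 stood at 190.4, 429.7, 389 and 248 CPM in members, 6.47, 6.97, 0 and 8.99 CPM in dopamine nuclei and 289, 437, 252 and 316 CPM in nuclei without Th. All member libraries were above all dopamine libraries (log2 fold change 5.66 ± 0.30, adjusted p = 1.28e-15), and the ranges of members and nuclei without Th overlapped (log2 fold change -0.11 ± 0.16, adjusted p = 0.854). Vgf, which encodes a secreted granule protein, stood at 132, 136, 215 and 185 CPM in members, 25.9, 24.4, 33.01 and 26.97 CPM in dopamine nuclei and 54.98, 59.5, 64.5 and 39.4 CPM in nuclei without Th, higher in both comparisons (log2 fold change 2.49 ± 0.21, adjusted p = 5.57e-11, and log2 fold change 1.62 ± 0.18, adjusted p = 3.43e-07). Scg2, a secretogranin of the same granules, was also higher in both (log2 fold change 1.05 ± 0.11, adjusted p = 3.17e-09, and log2 fold change 0.69 ± 0.10, adjusted p = 2.56e-05).

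Cartpt, the CART peptide precursor, was higher than in dopamine nuclei (log2 fold change 3.17 ± 0.44, adjusted p = 1.56e-06, and 2.58 without male 2) and did not pass against nuclei without Th (log2 fold change -0.26 ± 0.29, adjusted p = 0.796). Postn was called higher than in dopamine nuclei (log2 fold change 2.54 ± 0.71, adjusted p = 0.0114), but without female 1 its adjusted p was 0.871 and its log2 fold change 0.44. Among members with at least 2 Th UMIs the Postn fold change was 0.85 (adjusted p = 0.64), and DESeq2 gave an adjusted p of 0.156. Nts, the neurotensin precursor, was lower than in dopamine nuclei (log2 fold change -3.96 ± 0.68, adjusted p = 4.97e-05). It stood at 0, 28.6, 0 and 0 CPM in members, so female 2 held every Nts UMI. Its log2 fold change was -2.97 without male 2, and without female 2 no member UMI was left. Grp had 1 UMI in members, a ratio of 20.02-fold lower (95% counting interval 3.50 to 799) to dopamine nuclei. Penk, an opioid precursor, had 3 UMIs in members, all from male 2, and 226 in nuclei without Th, a ratio of 11.9-fold lower (95% counting interval 4.03 to 58.3), with an adjusted p of 0.142 by DESeq2. Pnoc, the nociceptin precursor, was lower than in nuclei without Th as well (log2 fold change -2.55 ± 0.44, adjusted p = 2.56e-04).

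Cerebellins and C1q-like proteins organise synapses through postsynaptic receptors, Adgrb3 and neurexins. Of 13 tested genes of this group outside the selection, 4 were higher and 2 lower than in dopamine nuclei (median 0.41, all tested genes 7.28% and 7.22%). Compared with nuclei without Th, 2 were higher and 2 lower (median -0.05, all tested genes 1.5% and 1.76%). Cbln1, a secreted organiser that binds neurexins, stood at 109, 100.3, 235 and 104 CPM in members, 9.06, 5.81, 6.19 and 7.87 CPM in dopamine nuclei and 77.7, 37.9, 74.8 and 51.6 CPM in nuclei without Th. It was higher in members by both comparisons (log2 fold change 4.06 ± 0.30, adjusted p = 2.03e-12, and log2 fold change 1.09 ± 0.20, adjusted p = 7.13e-04), with every member library above every library of either set. Grik2, a kainate receptor subunit that C1q-like proteins bind, was higher than in dopamine nuclei in every library (log2 fold change 1.86 ± 0.095, adjusted p = 8.26e-16).

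Adgrb3, the receptor of C1ql1, stood at 2389, 1776, 1791 and 1802 CPM in members and 3940.4, 3677, 3979 and 3689.7 CPM in dopamine nuclei (log2 fold change -1.08 ± 0.09, adjusted p = 3.87e-11). Its small deficit against nuclei without Th (log2 fold change -0.35 ± 0.089, adjusted p = 0.018) was lost without female 2, male 1 or male 2 (adjusted p 0.0953, 0.127 and 0.275), and under 2 of 11 other alternatives (adjusted p up to 0.0927 with no library block). Nrxn3, a presynaptic neurexin, was lower than in dopamine nuclei (log2 fold change -1.86 ± 0.10, adjusted p = 3.59e-15) and higher than in nuclei without Th (log2 fold change 0.79 ± 0.10, adjusted p = 2.56e-06). Cbln2 was called lower than in nuclei without Th (log2 fold change -2.08 ± 0.58, adjusted p = 0.0376), but without female 1, female 2 or male 2 its adjusted p was 0.116, 0.116 and 0.367. Without male 1 its log2 fold change was -3.08, and without male 2 it was -1.49. Its call was also lost under 5 of 11 other alternatives (adjusted p up to 0.154 with DESeq2). Grid1 was called higher than in dopamine nuclei (log2 fold change 0.41 ± 0.12, adjusted p = 0.0203), with adjusted p values of 0.0598, 0.0528 and 0.13 without female 1, female 2 and male 2. Among members with at least 2 Th UMIs the Grid1 log2 fold change was 0.21 (adjusted p = 0.444), and with no filter on low counts the adjusted p was 0.118.

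Of 11 tested genes that handle glutamate and GABA, 3 were higher than in dopamine nuclei and none lower (median 0.23, all tested genes 7.28% and 7.22%). In the other comparison, 1 was higher and 1 lower than in nuclei without Th (median 0.10, all tested genes 1.5% and 1.76%). Slc1a1, a neuronal glutamate transporter, was called higher than in dopamine nuclei (log2 fold change 0.79 ± 0.20, adjusted p = 0.00412, adjusted p 0.0688 without male 2). Gls2, a glutaminase, was called too (log2 fold change 0.61 ± 0.20, adjusted p = 0.0421), with adjusted p values of 0.0943 and 0.436 without male 1 and male 2, and lost the call under 7 of 11 other alternatives (adjusted p up to 0.105 with a minimum of 5000 UMIs). Slc32a1, the vesicular GABA transporter, stood at 42.7, 14.3, 33.5 and 45.1 CPM in members and 15.2, 8.21, 10.2 and 16.8 CPM in nuclei without Th (log2 fold change 1.49 ± 0.43, adjusted p = 0.0462). That call was lost when any 1 library was left out (adjusted p 0.134, 0.0693, 0.128 and 0.225) and under 5 of 11 other alternatives (adjusted p up to 0.21 without nuclei holding Mobp and Mog), with an adjusted p of 0.154 without called doublets. Gad2, a GABA-synthesising enzyme, stood at 7.77, 107, 0 and 0 CPM in members, with both male libraries at 0. Nuclei with a Gad1 UMI had been left out of members only, so Gad2 and Slc32a1 are not independent of the selection. The astrocyte-type GABA transporter Slc6a11 was the lower gene (log2 fold change -1.61 ± 0.40, adjusted p = 0.0145), with adjusted p values of 0.069 and 0.112 without female 2 and male 2, and its call was lost under 2 of 11 other alternatives (adjusted p up to 0.127 with a minimum of 5000 UMIs). The vesicular glutamate transporters Slc17a7 and Slc17a8 had no UMI in members.

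Receptors for peptides, monoamines and opioids were more often higher than lower against dopamine nuclei, with 5 of 14 higher and 1 lower (median 0.39, all tested genes 7.28% and 7.22%). The nuclei without Th gave 1 higher and 2 lower (median -0.03, all tested genes 1.5% and 1.76%). Htr2c, a serotonin receptor, stood at 889.7, 559, 671 and 978 CPM in members, 3.88, 11.6, 10.3 and 87.7 CPM in dopamine nuclei and 927, 873, 815 and 695 CPM in nuclei without Th. It was higher than in dopamine nuclei (log2 fold change 4.67 ± 0.31, adjusted p = 3.49e-13, and 6.21 without male 2, the library whose dopamine nuclei held most Htr2c) and did not pass against nuclei without Th (log2 fold change -0.13 ± 0.22, adjusted p = 0.885). Htr2a, another serotonin receptor, was higher in both comparisons (log2 fold change 1.28 ± 0.22, adjusted p = 3.83e-05, and log2 fold change 1.07 ± 0.20, adjusted p = 9.07e-04). Oprm1, the mu opioid receptor, was higher than in dopamine nuclei (log2 fold change 2.06 ± 0.44, adjusted p = 9.39e-04, and 2.86 without female 2), as was the cannabinoid receptor Cnr1 (log2 fold change 1.57 ± 0.30, adjusted p = 2.48e-04). The delta opioid receptor Oprd1 was called (log2 fold change 3.13 ± 0.77, adjusted p = 0.00417) but had an adjusted p of 0.0833 without female 2 and a log2 fold change of 3.79 without male 1. Tacr3, the receptor of neurokinin B, was lower than in dopamine nuclei (log2 fold change -4.35 ± 0.36, adjusted p = 3.87e-11, and -5.64 without female 1). Against nuclei without Th it was called lower too (log2 fold change -1.89 ± 0.50, adjusted p = 0.0228), with a log2 fold change of -3.18 without female 1 and adjusted p values of 0.0874 and 0.136 without female 2 and male 1 and 0.146 with no library block. The orexin receptor Hcrtr2 was the other gene called lower than in nuclei without Th (log2 fold change -0.87 ± 0.21, adjusted p = 0.0142), a call lost without female 1, female 2 or male 2 (adjusted p 0.0722, 0.128 and 0.164) and under 1 of 11 other alternatives (adjusted p = 0.0855 with a minimum of 5000 UMIs).

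Ion channel genes moved both ways. Of 27 tested channel and channel-partner genes, 7 were higher and 8 lower than in dopamine nuclei (median 0.06, all tested genes 7.28% and 7.22%). Set against nuclei without Th, 2 were higher and 3 lower (median -0.11, all tested genes 1.5% and 1.76%). Kcnd3, which carries the A-type potassium current, stood at 276, 243, 161 and 117 CPM in members and 1114, 1193, 1069 and 1105 CPM in dopamine nuclei (log2 fold change -2.57 ± 0.18, adjusted p = 8.75e-13), and its partner Kcnip4 was lower as well (log2 fold change -2.18 ± 0.18, adjusted p = 3.71e-11). Kcnn3, a calcium-activated potassium channel that shapes dopamine neuron firing, was lower than in dopamine nuclei (log2 fold change -2.62 ± 0.19, adjusted p = 1.24e-12), and none of these 3 genes passed against nuclei without Th.

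Of 21 tested glutamate receptor genes, 7 were higher and 4 lower than in dopamine nuclei (median 0.16, all tested genes 7.28% and 7.22%). Compared with nuclei without Th, 1 was higher and 6 lower (median -0.27, all tested genes 1.5% and 1.76%). Grik3, a kainate receptor subunit, stood at 54.4, 28.6, 33.5 and 58.6 CPM in members and 365, 459, 353 and 328 CPM in dopamine nuclei (log2 fold change -3.10 ± 0.19, adjusted p = 5.47e-14). Grm5, a metabotropic receptor, was higher than in dopamine nuclei (log2 fold change 1.29 ± 0.11, adjusted p = 5.79e-11). Grm8, a presynaptic metabotropic receptor, was lower in both comparisons (log2 fold change -1.37 ± 0.21, adjusted p = 6.66e-06, and log2 fold change -1.51 ± 0.21, adjusted p = 6.81e-06), with log2 fold changes of -2.05 and -2.23 without female 1. Grm7, its relative, was higher than in dopamine nuclei (log2 fold change 0.66 ± 0.23, adjusted p = 0.0477) and lower than in nuclei without Th (log2 fold change -1.41 ± 0.20, adjusted p = 1.74e-05), where DESeq2 gave an adjusted p of 0.052.

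Of 29 tested axon guidance genes, 6 were higher and 10 lower than in dopamine nuclei (median -0.27, all tested genes 7.28% and 7.22%). The nuclei without Th gave 4 higher and 8 lower (median 0.04, all tested genes 1.5% and 1.76%). Ntn1, which encodes the guidance cue netrin 1, stood at 279.7, 358, 93.9 and 356 CPM in members, 802, 806, 686 and 772 CPM in dopamine nuclei and 42.7, 31.8, 68.5 and 78.7 CPM in nuclei without Th. Male 1 was the lowest member library, yet the 3 sets did not overlap, and Ntn1 was lower than in dopamine nuclei (log2 fold change -1.59 ± 0.18, adjusted p = 5.42e-08) and higher than in nuclei without Th (log2 fold change 2.24 ± 0.23, adjusted p = 7.31e-08). Dcc, the netrin receptor, was lower than in dopamine nuclei (log2 fold change -1.22 ± 0.10, adjusted p = 5.40e-11) and did not pass against nuclei without Th (log2 fold change -0.20 ± 0.10, adjusted p = 0.421). Sema3d, a secreted semaphorin, was higher in both (log2 fold change 3.04 ± 0.25, adjusted p = 2.70e-11, and log2 fold change 1.09 ± 0.19, adjusted p = 3.75e-04), while the semaphorin receptor Nrp1 was lower than in nuclei without Th (log2 fold change -1.77 ± 0.23, adjusted p = 4.12e-06).

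Transcription factors that mark regions around the VTA were largely at low counts, and only 14 of 41 could be tested. Of these, 3 were higher and 1 lower than in dopamine nuclei (median 0.44, all tested genes 7.28% and 7.22%). The share lower than in dopamine nuclei was thus near that of all genes. Set against nuclei without Th, 2 were higher and 1 lower (median -0.40, all tested genes 1.5% and 1.76%). Nfia, a nuclear factor I gene, stood at 703, 738, 436 and 860.5 CPM in members, 80.3, 188, 76.3 and 131 CPM in dopamine nuclei and 577, 515, 450.1 and 492 CPM in nuclei without Th (log2 fold change 2.45 ± 0.16, adjusted p = 2.80e-13 against dopamine nuclei). Nfib was higher in both comparisons (log2 fold change 2.52 ± 0.16, adjusted p = 7.25e-14, and log2 fold change 0.66 ± 0.13, adjusted p = 0.00159), the second with an adjusted p of 0.0788 without male 2. Foxp2 was lower than in dopamine nuclei (log2 fold change -0.73 ± 0.11, adjusted p = 3.10e-06) and higher than in nuclei without Th (log2 fold change 0.61 ± 0.11, adjusted p = 3.39e-04). Meis2 had 0 UMIs in members and 63 in nuclei without Th, at least 3.32-fold lower by the floor of 3 UMIs, with adjusted p values of 0.133, 0.0551 and 0.0737 without female 1, male 1 and male 2. The Meis2 call was also lost under 3 of 10 other alternatives (adjusted p up to 0.138 with DESeq2).

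Outside these lists, the largest increases over dopamine nuclei included Syt2, a fast calcium sensor of transmitter release, at 42.7, 42.97, 20.1 and 31.5 CPM in members against 0, 1.16, 3.10 and 1.12 CPM (log2 fold change 4.37 ± 0.57, adjusted p = 4.34e-07, and 5.23 without male 1). Zfp536, a zinc finger gene, stood at 128, 158, 161 and 158 CPM against 2.59, 20.9, 9.29 and 20.2 CPM, with little spread among member libraries (log2 fold change 3.40 ± 0.26, adjusted p = 7.72e-12). Dach1, a transcriptional cofactor, was higher as well (log2 fold change 3.46 ± 0.34, adjusted p = 2.17e-09), but male 1 stood at 832 CPM against at most 287 CPM in the other member libraries, and without male 1 the log2 fold change was 2.52. Ces1d, a carboxylesterase, had 29 UMIs in members and 3 in dopamine nuclei, a ratio of 43.95-fold higher (95% counting interval 13.6 to 225). Itga11, an integrin subunit, had 27 UMIs in members and 2 in dopamine nuclei, a ratio of 61.4-fold higher (95% counting interval 15.4 to 533). The other genes among the 15 largest increases were AABR07038029.1, with 19 and 3 UMIs, Syt6 (log2 fold change 3.92 ± 0.54, adjusted p = 1.26e-06), Tcerg1l (log2 fold change 3.44 ± 0.35, adjusted p = 3.08e-09), Mctp2 (log2 fold change 3.37 ± 0.39, adjusted p = 5.18e-08), Mme, which encodes neprilysin (log2 fold change 3.32 ± 0.50, adjusted p = 5.28e-06), and Akain1 (log2 fold change 3.83 ± 0.77, adjusted p = 4.17e-04, and 5.37 without male 2).

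The 10 genes with the lowest fitted fold changes against dopamine nuclei included 5 with no UMI in any member, for which only a bound can be given. Synpo2, an actin-binding protein, had 266 UMIs in dopamine nuclei, at least 19.5-fold lower in members. Npsr1, the receptor of neuropeptide S, had 222 UMIs, at least 16.3-fold lower. Slc39a4, a zinc transporter, was at least 6.96-fold lower, Zar1 at least 5.87-fold and Myo3a, a myosin, at least 5.43-fold. These bounds lie below the ratios of genes with 2 or 3 member UMIs, so they give no order of size. Pde11a, a phosphodiesterase, had 3 UMIs in members and 481 in dopamine nuclei, a ratio of 35.3-fold lower (95% counting interval 11.99 to 172). Fam160a1 was also among the 10 (log2 fold change -4.76 ± 0.36, adjusted p = 5.67e-12), as was Ntf3, given above. Mboat1 and Pdlim5 had 3 member UMIs each, ratios of 26.4-fold lower (95% counting interval 8.96 to 129) and 24.9-fold lower (95% counting interval 8.46 to 121).

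Against nuclei without Th, Adgrv1, a large adhesion receptor, stood at 824, 959.6, 811 and 1356 CPM in members and 292, 304, 256 and 286 CPM in those nuclei, with no overlap (log2 fold change 1.79 ± 0.14, adjusted p = 2.12e-10). Itga11 (log2 fold change 2.67 ± 0.51, adjusted p = 0.00103), Ces1d (log2 fold change 2.38 ± 0.46, adjusted p = 0.00103) and Arhgap6 (log2 fold change 2.36 ± 0.41, adjusted p = 2.73e-04) were higher too. Efemp1, an extracellular matrix protein, was called higher (log2 fold change 2.24 ± 0.46, adjusted p = 0.00189), with an adjusted p of 0.0743 without male 2, and Smoc1, a secreted matrix protein, likewise (log2 fold change 1.79 ± 0.38, adjusted p = 0.003), with 0.0546 without male 1. Of the remaining large increases, Ssc5d (log2 fold change 1.89 ± 0.29, adjusted p = 3.83e-05) and AABR07054126.1 (log2 fold change 2.12 ± 0.30, adjusted p = 1.44e-05) passed with each library left out. AABR07038029.1, Slc45a2 and Nnmt did not, with adjusted p values of 0.123, 0.0991 and 0.475 without female 1, female 2 and female 2, and of 0.102, 0.302 and 0.062 without male 2. Of the other alternatives, 1 of 11 (adjusted p = 0.082 with a minimum of 5000 UMIs) ended the call of AABR07038029.1, 3 of 11 (adjusted p up to 0.1248 with a minimum of 5000 UMIs) that of Slc45a2 and 3 of 11 (adjusted p up to 0.0655 with no library block) that of Nnmt. Cdh23, a cadherin, had 0 UMIs in members and 101 in nuclei without Th, at least 5.33-fold lower. Slc6a5, a glycine transporter, had 0 and 98 UMIs, at least 5.17-fold lower, and its adjusted p by DESeq2 was 0.644. Pax5 and Pax8, factors of the midbrain-hindbrain boundary, had 1 UMI each in members against 115 and 112, ratios of 18.2-fold lower (95% counting interval 3.20 to 725) and 17.7-fold lower (95% counting interval 3.12 to 707). The Pax5 call was lost without female 1 (adjusted p = 0.0536). Fign was lower as well (log2 fold change -3.09 ± 0.35, adjusted p = 3.43e-07, and -3.77 without female 1). Cdk15, AABR07044980.1 and Slc1a2, a glutamate transporter of astrocytes, had 1 member UMI each, and Pdgfra had none against 158 in nuclei without Th, at least 8.34-fold lower. The nuclei without Th were not limited to neurons. Their 7 oligodendrocyte precursor markers summed to 266 to 590 CPM per library, against 186 to 400 CPM in members. The part of glial transcripts in the lower calls of Pdgfra, Slc1a2 and other glial genes was not tested. Leaving out female 2 or male 2 ended the calls of AABR07044980.1 (adjusted p 0.0524 and 0.0505) and Slc1a2 (0.152 and 0.0623), and leaving out male 1 or male 2 ended that of Pdgfra (0.0692 and 0.0932). The Slc1a2 call was also lost under 5 of 11 other alternatives (adjusted p up to 0.0782 with no library block), and the Pdgfra call under 2 of 9 (adjusted p up to 0.146 with a minimum of 5000 UMIs).

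To compare detection at equal depth, each nucleus was thinned to 2000 UMIs, which left none out, and the share of nuclei expected to hold a UMI was averaged over the 4 libraries. The 20 genes compared were listed with earlier results of these data known. Their shares come from the same counts as the edgeR results and are not independent of them. Of the 20, 4 were detected more often than in dopamine nuclei in all 4 libraries (Tac1, Lmx1a, Foxa2 and Nr4a2) and 10 less often in all 4. With 4 libraries the exact two-sided sign-flip test cannot go below p = 0.13, the value each of these 14 genes reached. Among nuclei with at least 5000 UMIs, thinned to 5000, only 2 genes were detected more often in all 4 libraries. Lmx1a then stood at 59.1% in members and 60.96% in dopamine nuclei of female 2, and Nr4a2 at 23.0% and 23.6% in female 1, 25.1% and 29.1% in male 1 and 15.9% and 22.6% in male 2. Slc18a2 was found in 4.80% ± 5.16 (SD, n = 4) of members, 51.5% ± 5.23 of dopamine nuclei, 2.46% ± 1.26 of nuclei without Th and 0.523% ± 0.117 of oligodendrocyte nuclei (exact p = 0.625 for members against nuclei without Th). Without thinning it was found in 12.1% ± 6.76 of members and 90.2% ± 3.23 of dopamine nuclei. Female 2 had the highest share among members, 12.1%, and male 1 the lowest, 0.825%, which does not stand clear of its oligodendrocyte share of 0.682%.

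Lmx1a was found in 38.9% ± 9.55 of members, 29.3% ± 2.50 of dopamine nuclei and 28.2% ± 5.02 of nuclei without Th at equal depth, against 0.451% ± 0.261 of oligodendrocyte nuclei. Tac1 was found in 26.8% ± 4.63 of members, 0.896% ± 0.612 of dopamine nuclei, 24.4% ± 5.19 of nuclei without Th and 1.36% ± 0.279 of oligodendrocyte nuclei. The dopamine nuclei's share was thus no higher than that of oligodendrocyte nuclei, a set not cleared of members or dopamine nuclei, and the members' share was. Ret was found in 24.5% ± 6.05 of members, more often than in nuclei without Th (9.89% ± 1.44) and less often than in dopamine nuclei (37.2% ± 5.26) in all 4 libraries. Gad2, at 3.34% ± 5.77 of members, was lower than the oligodendrocyte share (2.08% ± 0.321) in 3 of 4 libraries.

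**Figure D5:**
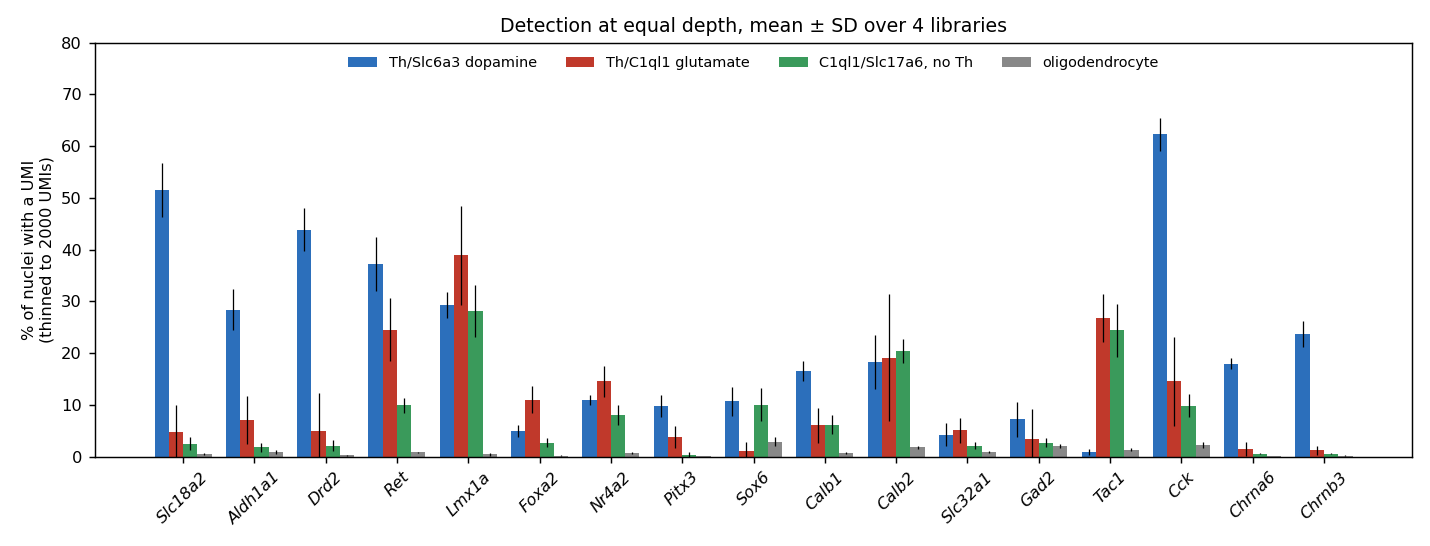
Share of nuclei with at least 1 UMI after thinning to 2000 UMIs, in percent, for 17 genes, as the mean over 4 libraries with SD bars (cut at 0), in dopamine nuclei, members, C1ql1/Slc17a6 nuclei without Th and oligodendrocyte nuclei. Slc18a2 falls from 51.5% in dopamine nuclei to 4.80% in members, and Tac1 rises from 0.896% to 26.8%.

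General neuronal genes and markers of other cell types were read in the same sums. Of 5 general neuronal genes, 2 were lower than in dopamine nuclei and none higher (median -0.47), and 1 was lower than in nuclei without Th (median -0.17). Their summed level was 3045 to 3827 CPM over member libraries, 8289 to 9354 CPM over dopamine libraries and 4062 to 4463 CPM over nuclei without Th. Snap25, a synaptic vesicle fusion protein, did not pass in either comparison (log2 fold change 0.05 ± 0.10, adjusted p = 0.833 and log2 fold change 0.03 ± 0.10, adjusted p = 0.949), whereas Syt1, the main calcium sensor of fast release, was lower in both (log2 fold change -2.70 ± 0.11, adjusted p = 2.75e-18, and log2 fold change -0.84 ± 0.11, adjusted p = 3.00e-06). Map2, a microtubule-associated protein of dendrites, was lower than in dopamine nuclei (log2 fold change -0.47 ± 0.10, adjusted p = 0.00121), with an adjusted p of 0.052 without male 2. The summed level of 6 oligodendrocyte markers ran from 583 to 1402 CPM over member libraries, from 535 to 1115 CPM over dopamine libraries and from 709 to 1222 CPM over nuclei without Th. None of the 6 was called in either comparison, and 5 of 87 members met the oligodendrocyte condition of Mobp and Mog. Pdgfra and Cspg4, defining genes of oligodendrocyte precursors, were at 0 UMIs in members, as were Flt1 and Cldn5 of vessels and Cx3cr1 and Tmem119 of microglia. Cldn5 was at 0 in dopamine nuclei as well. Other genes of these lists were present in members. A precursor marker was found in 62.1% of members, 53.7% of dopamine nuclei and 68.8% of nuclei without Th. A microglial marker was found in 9.20% of members and 8.55% of dopamine nuclei, and a vascular one in 5.75% and 24.2%. Dbh, Slc6a2 and Phox2a of noradrenaline neurons were at 0, as were Tph2, Slc6a4 and Fev of serotonin neurons and Gata2, Gata3, Tal1 and Lum among the inhibitory neuron markers. The noradrenaline genes were at 0 in every set, and Slc6a4, Fev and Gata2 were at 0 in dopamine nuclei too, so these zeros do not set members apart. Other inhibitory markers of the list were present, in 71.3% of members, and any marker of it was found in 33.6% of dopamine nuclei and 56.0% of nuclei without Th. Members had to hold no Gad1 UMI, a condition not set for the comparison sets. Gad1 was found in 3.24% of dopamine nuclei and 5.62% of nuclei without Th. The inhibitory markers of members are therefore not independent of the selection.

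The share of members differed less between sexes than between libraries of 1 sex. Among nuclei with at least 2000 UMIs, the female libraries held 0.746% (Wilson 95% interval 0.510 to 1.09) and 0.376% (0.228 to 0.619) members, and the male libraries 0.515% (0.317 to 0.835) and 0.636% (0.446 to 0.907). The female libraries held both the highest and the lowest share. Means were 0.561% ± 0.262 (SD, n = 2) in females and 0.576% ± 0.0857 (SD, n = 2) in males (exact two-sided permutation p = 1, with 0.33 the smallest p that 2 against 2 libraries can reach).

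Within members, 7 of 4683 tested genes differed between sexes (0.149%), 3 higher in females (0.0641%) and 4 lower (0.0854%). The clearest was AC241873.1, at 7.77, 14.3, 268 and 266 CPM (log2 fold change of females over males -4.62 ± 0.48, adjusted p = 2.29e-08), and Ddx3 and the Y-linked gene Kdm5d had 0 UMIs in both female libraries and 18 and 24, and 13 and 19 UMIs, in the male libraries. Apod, a lipocalin abundant in oligodendrocytes, stood at 93.2, 78.8, 349 and 239 CPM (log2 fold change of females over males -1.69 ± 0.32, adjusted p = 0.0056). The summed oligodendrocyte markers of the same sums were 583, 773, 1402 and 960 CPM, and their part in the Apod result was not tested. Without female 2 or male 1 the adjusted p of Apod was 0.0502 and 0.0684, with DESeq2 it was 0.819, among members with at least 2 Th UMIs 0.999, and with 0 Slc6a3 UMIs 0.0551. Grm8 was called higher in females (log2 fold change of females over males 1.43 ± 0.31, adjusted p = 0.0283), but without female 1 its log2 fold change was 0.68 and its adjusted p 0.965, and without male 2 its adjusted p was 0.167. That call was also lost under 6 of 9 other alternatives (adjusted p up to 1.000 with DESeq2). The call of Ddx3 was lost without male 2 (adjusted p = 0.157), and that of Kdm5d without female 1 or male 1 (0.19 and 0.128). Without called doublets the adjusted p values of Ddx3 and Kdm5d were 0.0666 and 0.286. In all, 2 of 9 other alternatives (adjusted p up to 0.0679 without nuclei holding Mobp and Mog) ended the Ddx3 call and 4 of 8 (adjusted p up to 0.286 without called doublets) the Kdm5d call. Male 2 held the shallowest members, as given above, and the part of depth in these calls was not tested. A test of whether the difference between members and dopamine nuclei itself differed between sexes called none of 10769 genes (0%) by edgeR, which gave 550 at an unadjusted p under 0.05, and none by DESeq2.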

How the data were processed

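The deposited files give, for every gene and barcode, UMI counts made by the authors with Cell Ranger and build rn6 per the submitters' processing notes, and their headers name software version 3.0.2. Nothing was normalised in them, and no cell annotation was used. Barcodes with at least 2000 UMIs were sorted by the stated rule, and the 7 selection genes were left out of every test and of the clustering (scanpy 1.11.5). Counts were summed per library and set of nuclei and tested with edgeR 4.0.16 (TMM, filterByExpr, quasi-likelihood, library as block), with DESeq2 1.42.0 as an alternative. The block is real, since the sets of 1 library come from the same pooled rats: deviations correlated within a library (r = 0.134 to 0.184 with dopamine nuclei, 0.114 to 0.249 with nuclei without Th, 2102 genes), more than with any other library. Doublets were scored with Scrublet, with an expected rate that grows with a library's barcodes, and kept. The members and lists were chosen with earlier results of these data known. Named are, per comparison, 15 genes that rose most and 10 that fell most, given 20 CPM or more on average in the higher set and 1 direction across all 4 libraries, besides listed genes with the lowest p or largest size. In the comparisons of sets, p-values rest on the spread left among the sums once library and set are fitted. In the sex test within members, they rest on the spread between libraries of 1 sex. Nothing says that pools of 1 sex were prepared apart. Intervals and floors cover counting error only. Some listed genes that enter the counts and medians are not reported here by name.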

Additional observations from a re-analysis of the deposited data

How the results depend on the processing

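The count of genes called against dopamine nuclei stayed between 1125 and 1625 under all 15 alternatives, against 1561, and leaving out 1 library gave 1125 to 1275. Against nuclei without Th, 14 of 15 alternatives stayed within 1.5 times of 351, and leaving out 1 library gave 195 to 331, with 195 without male 2. Without the library block, the pairing of nuclei from the same rats, the counts were 1345 and 254. Of 129 listed or top-ranked genes called against dopamine nuclei, 102 were called under every alternative that gave a value, and of 76 against nuclei without Th, 39 were. None of these changed sign. The calls by sex within members moved most, from 7 to 2 with DESeq2, to 19 with no filter on low counts, to 9 to 19 with 1 library left out, and to 27 with the replicate number as a block, although the labels do not say that a number pairs libraries (r = 0.151). They came to 3 with a minimum of 5000 UMIs, 3 with at least 2 Th UMIs, 3 with 0 Slc6a3 UMIs, 1 without called doublets and 1 without nuclei holding Mobp and Mog, an alternative chosen after seeing the data. Of the 7, only AC241873.1 was called under every alternative. The difference of the members' contrast between sexes rose from 0 calls to 22 with no filter, 1 to 11 with 1 library left out, 7 without called doublets and 3 with at least 2 Th UMIs. The sex difference in the share of members, -0.0147 percentage points, turned to 0.244 with a minimum of 5000 UMIs, 0.170 without female 2 and 0.0459 without male 2, and ran from -0.200 to 0.170 with 1 library left out. Among nuclei with at least 5000 UMIs thinned to that depth, 2 genes in place of 4, without Lmx1a and Nr4a2, were detected more often than in dopamine nuclei in every library. The share of members in their largest cluster ran from 56.3% to 62.1%. The cause of each of these shifts was not tested. With 15 to 30 members per library, a gene at 0 UMIs among members is bounded only by the floor of 3 UMIs.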

Other observations

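Genes listed as markers of glia, vessels and other neurons were also read in the Th/C1ql1 glutamate nuclei. The summed level of 7 oligodendrocyte precursor markers ran from 186 to 400.2 CPM over member libraries, from 133 to 165 CPM over dopamine libraries and from 266 to 590.4 CPM over nuclei without Th. Tnr, a matrix protein that neurons also express, was higher than in dopamine nuclei (log2 fold change 0.92 ± 0.21, adjusted p = 0.00154, adjusted p 0.0624 without female 1 and 0.0534 among members with at least 2 Th UMIs). Vcan, another matrix gene of the list, was called higher than in dopamine nuclei (log2 fold change 1.54 ± 0.42, adjusted p = 0.0107), with an adjusted p of 0.328 without female 1, where its log2 fold change was 0.88. Among members with at least 2 Th UMIs the log2 fold change of Vcan was 0.25 (adjusted p = 0.86), and among those with 0 Slc6a3 UMIs it was 0.96 (adjusted p = 0.154). Against nuclei without Th, Vcan was called lower (log2 fold change -1.17 ± 0.30, adjusted p = 0.0194), with adjusted p values of 0.178 and 0.266 without male 1 and male 2 and a log2 fold change of -1.78 without female 1. With the stricter comparator, which holds no Gad1, Slc26a7 or Pdgfra UMI and at most 1 of Slc6a3, that fold change was -0.59 (adjusted p = 0.391), and 4 of 11 alternatives other than leaving out a library (adjusted p up to 0.391 with the stricter comparator) ended the call.

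Astrocyte markers summed to 28.6 to 87.2 CPM in members and 49.5 to 233 CPM in dopamine nuclei. Slc1a3, a glutamate transporter of astrocytes, was called lower than in dopamine nuclei (log2 fold change -1.80 ± 0.56, adjusted p = 0.0265), with adjusted p values of 0.168 and 0.0713 without female 2 and male 2, and lost the call under 3 of 11 other alternatives (adjusted p up to 0.0959 with no library block). Slc4a4, a bicarbonate transporter, was called lower than in nuclei without Th (log2 fold change -1.31 ± 0.32, adjusted p = 0.0128), with 0.142 and 0.184 without the same libraries, and lost the call under 4 of 11 other alternatives (adjusted p up to 0.309 with no library block). Vascular markers summed to 0 to 13.5 CPM in members and 27.9 to 46.1 CPM in dopamine nuclei, where Ptprb, a phosphatase of endothelial cells, was higher than in members (log2 fold change -2.53 ± 0.50, adjusted p = 3.34e-04). Microglial markers summed to 3.89 to 22.5 CPM, serotonin markers to 0 to 3.89 CPM, and cholinergic and histamine markers to 0 to 6.71 CPM in members. Inhibitory neuron markers summed to 152 to 243 CPM in members, chosen to hold no Gad1 UMI, and 60.9 to 200.2 CPM in dopamine nuclei, where Gad1 was not limited.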
